A study of Mus musculus with 4 samples.

Results

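Interferon-stimulated genes are the transcripts that cells raise on exposure to interferon, and 40 of them, fixed by symbol, were followed in lung ILC2s. Group 2 innate lymphoid cells (ILC2s) are tissue-resident lymphocytes that make type 2 cytokines. The 40 were chosen by their names in the table of 38697 genes, and each name had 1 row. They comprised 31 antiviral genes of the type I interferon kind and 9 genes of the guanylate-binding protein (GBP) and immunity-related GTPase (IRG) families. The KO group was 2 samples of ILC2s from R5/+Nrp1f/f mice and the WT group 2 samples from R5/+ mice, all C57BL/6, all treated with bleomycin (a drug that injures the lung), each sample pooling 3 to 4 mice. R5 is an allele at the Il5 locus that carries a reporter and Cre recombinase, so both groups had 1 copy of it, and loss of the floxed Nrp1, which encodes the co-receptor neuropilin-1, depends on a cell having expressed Il5. The sources used here give neither age, sex nor the time after bleomycin.

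Type I interferons act through the receptor chains Ifnar1 and Ifnar2 and the kinases Jak1 and Tyk2 to activate a complex that includes Stat2 and Irf9. This complex binds the interferon-stimulated response element (ISRE) at promoters of the antiviral genes, whose products sense viral nucleic acid, degrade RNA or block translation. Interferon-gamma acts through Ifngr1 and Ifngr2, and its signal reaches promoters at the gamma-activated site (GAS). It is the classical inducer of GBPs and IRGs, large GTPases that assemble on vacuoles holding intracellular microbes. In ILC2s, both kinds of interferon are known to restrain proliferation and type 2 cytokine output.

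Promoters show how the classes overlap in the letters of these elements. The 2 most abundant members of each class with a RefSeq promoter are shown here (GRCm38.p6, 250 bases before to 50 after a transcription start, 5′ to 3′ on the gene's strand), with ISRE and GAS letters in capitals. Irgm1 lies at chr11:48871371-48871670 on the minus strand and Gbp7 at chr3:142530086-142530385 on the plus strand. Ddx58 lies at chr4:40239776-40240075 on the minus strand, and the second of 2 listed starts of Ifi203 at chr1:173942443-173942742 on the minus strand, chosen because the window of the first holds neither motif.
Irgm1: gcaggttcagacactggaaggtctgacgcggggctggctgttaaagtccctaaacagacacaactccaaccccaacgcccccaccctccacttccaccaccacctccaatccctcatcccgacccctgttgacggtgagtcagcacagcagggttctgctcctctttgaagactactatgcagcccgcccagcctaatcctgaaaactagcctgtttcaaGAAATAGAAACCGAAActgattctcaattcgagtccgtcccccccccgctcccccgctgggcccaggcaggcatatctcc
Gbp7: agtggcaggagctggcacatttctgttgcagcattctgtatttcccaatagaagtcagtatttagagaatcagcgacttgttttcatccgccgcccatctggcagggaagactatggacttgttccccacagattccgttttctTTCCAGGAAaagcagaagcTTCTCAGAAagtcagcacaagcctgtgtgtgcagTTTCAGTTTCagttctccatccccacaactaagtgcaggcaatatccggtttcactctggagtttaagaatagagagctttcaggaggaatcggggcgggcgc
Ddx58: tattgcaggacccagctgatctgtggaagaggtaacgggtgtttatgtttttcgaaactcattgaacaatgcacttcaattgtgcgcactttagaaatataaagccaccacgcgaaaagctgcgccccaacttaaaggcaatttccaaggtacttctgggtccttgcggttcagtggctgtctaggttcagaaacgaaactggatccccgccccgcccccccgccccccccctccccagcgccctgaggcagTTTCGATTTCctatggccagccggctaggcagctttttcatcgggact
Ifi203: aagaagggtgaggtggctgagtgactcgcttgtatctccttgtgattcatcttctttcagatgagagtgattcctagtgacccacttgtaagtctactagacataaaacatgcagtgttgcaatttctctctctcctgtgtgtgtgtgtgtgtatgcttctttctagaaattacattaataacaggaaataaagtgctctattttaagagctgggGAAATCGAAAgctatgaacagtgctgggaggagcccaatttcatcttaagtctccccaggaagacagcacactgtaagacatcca
The searched letters were GAAANNGAAA on either strand (TTTCNNTTTC on the reverse) for the ISRE and TTCNNNGAA, which reads the same on both strands, for the GAS. They do not overlap in the windows shown. Irgm1 held 2 overlapping ISRE matches, the first starting at position -30 from the start. Gbp7 held 1 ISRE match, starting at -53, and 2 GAS matches. Ifi203 held an ISRE match starting at -35, and Ddx58 one starting at position 3. Of the 28 members with a promoter in the RefSeq set, 17 (60.7%) held an ISRE match in at least 1 window, against 3.99% of 27025 genes. By class these were 6 of 7 GBP and IRG genes and 11 of 21 antiviral genes. A GAS match was found in 9 of the 28 (32.1%), against 9.55% of all genes, and 6 held both. A match describes letters and does not show binding.

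All values below come from a comparison of the genotypes that the authors ran and deposited. In it, baseMean stands for the normalized count of a gene averaged across libraries, and the log2 fold change, with its standard error (SE), is given here as KO over WT. The table's name puts WT first, so the deposited sign was turned. A gene was called at an adjusted p under 0.05. Nrp1, the targeted gene, fell in KO, at -1.18 ± 0.21 on the log2 scale (adjusted p = 1.27e-04) per the authors' deposited table, which fits that reading at the level of the gene but does not isolate the floxed exon. Values per library were not used here, because their column codes match no sample label, so neither the values of single pools nor the depth per library are given. All baseMean values sum to 12974900 (to 6 digits), of which the 40 genes took 0.114%. The 15 ILC2 identity genes had a median baseMean of 9649, with 39152 for Gata3, 12090 for the IL-33 receptor Il1rl1, 6771 for Il5 and 187.3 for Il13 per the authors' deposited table. The lowest was Ptgdr2, the receptor CRTH2, at 7.05. The labels do not say whether pools were prepared separately, so the p-values measure the spread between these 4 pools.

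None of the 40 interferon-stimulated genes passed the test in either direction. Of the 19193 tested genes, 0.552% were called in the authors' deposited table, 0.453% as higher and 0.099% as lower in KO. That is 87 higher and 19 lower, against 225 and 2 when values were centred on abundant genes. Among the 17438 tested genes within the members' range of baseMean these shares were 0.528%, 0.487% and 0.0401%. A count of 0 in 40 is near that background. At an unadjusted p under 0.05, too, the count of members was 0 of 40, against 13.6% of tested genes, with 9.62% higher and 3.95% lower in KO. Within the members' range of baseMean it was 12.2%, with 9.71% higher and 2.52% lower. The smallest adjusted p among the members was 0.410, that of Oas2, per the authors' deposited table. All 40 had an adjusted p, with baseMean values between 7.47 for Mx2 and 2095 for Gbp4 and a median of 200.5. The members' median log2 fold change was -0.03, against 0.08 over all tested genes, both as KO over WT. Of the 40 values, 22 (55%) were below 0, against 46% of tested genes and 44.7% of those within the members' range of baseMean.

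**Figure D1:**
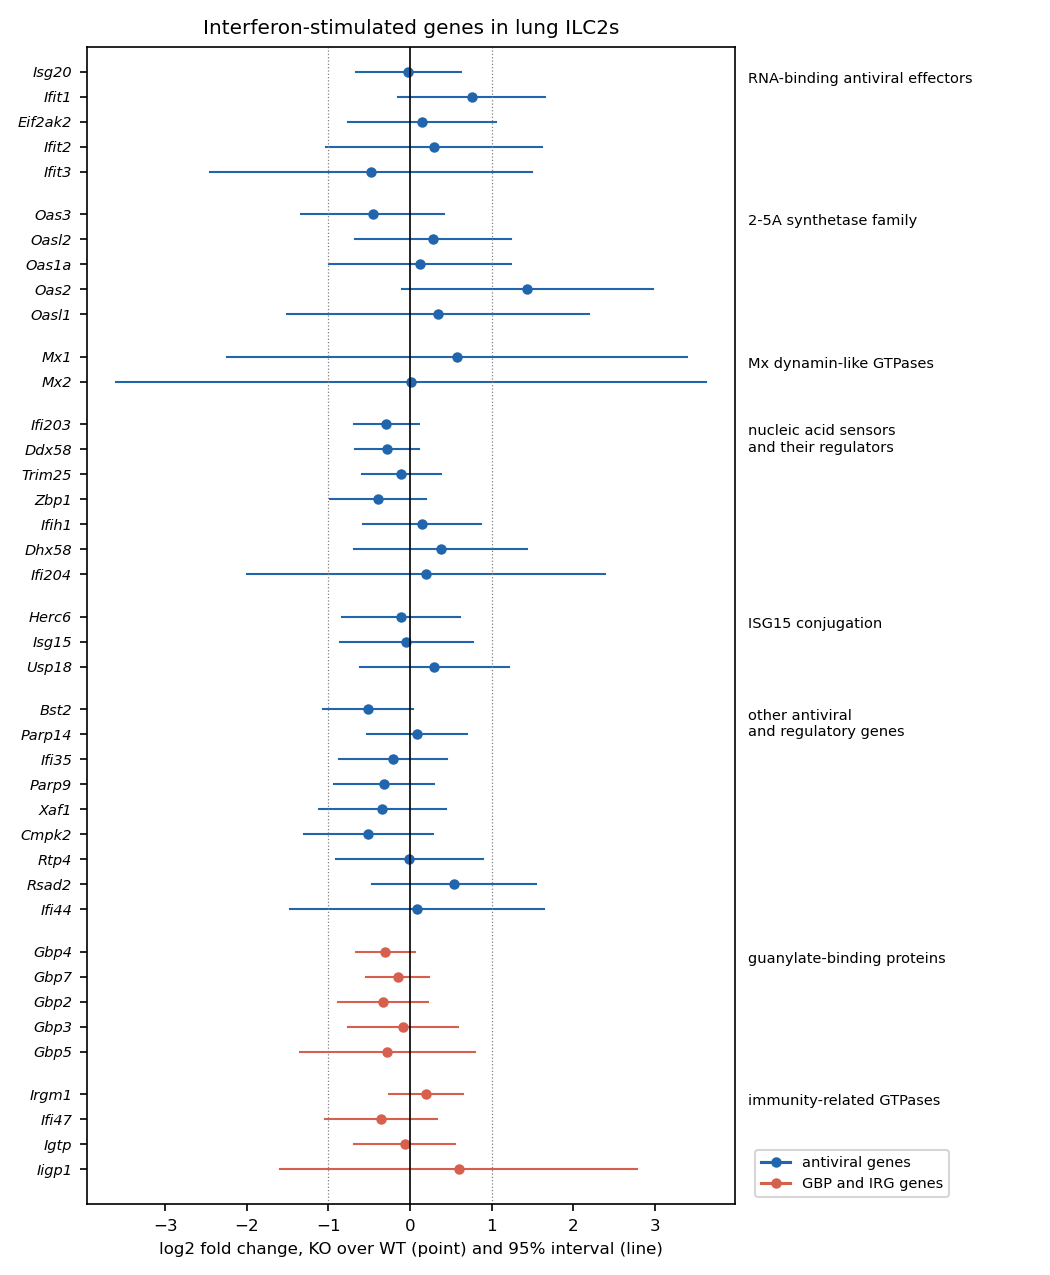
Log2 fold change, KO over WT, of the 40 interferon-stimulated genes (x axis; points) with 95% intervals from the authors' standard errors (lines), grouped by role (y axis; most abundant gene of a role on top). Dotted lines mark 2-fold changes, and each of the 40 intervals includes 0.

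How much change the data leave possible differed widely between members. The 95% interval of a gene was taken as its log2 fold change ± 1.96 SE. It lay inside a 2-fold change in both directions for 18 of the 40 (45%), against 35.6% of tested genes and 33.2% of those within the members' range of baseMean. For 24 members it lay below a 2-fold rise (44.8% of tested genes, 43.3% within the range) and for 26 above a 2-fold fall (62.2% and 61%). Only 1 member, Gbp7, had an interval inside a 1.5-fold change in both directions (7.35% of tested genes, 5.32% within the range). None of the 11 members with a baseMean under 100 had an interval inside a 2-fold change. Of the 29 with at least 100, 18 (62.1%) did. The smallest SE of the 9968 tested genes under 100 was 0.514, too large at 1.96 SE for any such interval. The count for the 11 low members was thus fixed by their abundance. All 6828 tested genes with such an interval lay among the 9225 with a baseMean of at least 100, a larger share than that of the 29 members. For the low members a 2-fold change in at least 1 direction lay within the error.

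The RNA-binding effectors hold the best-known early antiviral transcripts. Ifit1, which binds viral RNA that lacks host-type cap methylation and blocks its translation, stood at 0.75 ± 0.46 (adjusted p = 0.472) with a baseMean of 129.0 per the authors' deposited table. Its interval ran from -0.14 to 1.65, so a 3.14-fold rise and no change both lay within its limits. Its cluster neighbours on chromosome 19 had values on either side of 0. Ifit2 was at 0.29 ± 0.68 and Ifit3 at -0.48 ± 1.01 per the authors' deposited table, with 70.2 and 50.7 as their baseMean. Ifit3b, a near-identical copy of Ifit3 with a baseMean of 11.2, could share reads with it in counting, so the value of Ifit3 is uncertain. Eif2ak2, the RNA-activated kinase PKR, stood at 0.15 ± 0.46, and Isg20, an RNA exonuclease, at -0.02 ± 0.33 per the authors' deposited table.

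The oligoadenylate synthetases make a second messenger that activates the ribonuclease RNase L. Of 5 Oas and Oas-like (Oasl) members 4 had positive values, against 54.0% of tested genes, and none passed. Under a baseMean of 100, where Oas1a, Oas2 and Oasl1 lie, 81.8% of tested genes were positive. Relative to the running median of genes of like baseMean, 2 of the 5 lay above it and 3 below, with a median of -0.003. Oas2 had the largest log2 value of all 40 members, 1.44 ± 0.78 (unadjusted p = 0.0664, adjusted p = 0.410), at a baseMean of 45.3 per the authors' deposited table. Under equal weight of the genotypes that value implies a mean of 66.2 normalized counts in KO against 24.4 in WT. Oas3, whose gene lies 3244 bp away on the same strand of chromosome 5, was at -0.46 ± 0.45 with a baseMean of 320.5 per the authors' deposited table. The interval of Oas2 reached from -0.10 to 2.97 and that of Oas3 from -1.33 to 0.41, so the intervals overlap. Oas1a was at 0.12 ± 0.57, Oasl2 at 0.28 ± 0.49 and Oasl1, known in mice as a repressor of Irf7 translation, at 0.34 ± 0.94 per the authors' deposited table.

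The Mx genes, dynamin-like GTPases that block incoming viruses, were the least abundant of the members per kb of exon. C57BL/6 mice are known to carry defective alleles of both, and the table types Mx2 as a polymorphic pseudogene. Mx1 stood at 0.57 ± 1.44 and Mx2 at 0.01 ± 1.84, with baseMean values of 18.7 and 7.47 per the authors' deposited table. The interval of Mx2 ran from a 12.1-fold fall to a 12.3-fold rise and that of Mx1 from a 4.74-fold fall to a 10.5-fold rise.

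Among nucleic acid sensors the abundant members had values just below 0 with narrow intervals that included it. Ddx58, the RNA helicase RIG-I, stood at -0.28 ± 0.20 (adjusted p = 0.565) at a baseMean of 1054 per the authors' deposited table, which implies a mean of 951 in KO against 1156 in WT. Ifi203, a HIN-200 family DNA-binding protein, was at -0.29 ± 0.20 (adjusted p = 0.549) at a baseMean of 1585 per the authors' deposited table. Its exons overlap those of the related gene Mndal by 37 bp on the same strand, and Mndal, at a baseMean of 1622, was at -0.24 ± 0.19 per the authors' deposited table. The intervals of Ddx58 and Ifi203 both reached down to a 1.60-fold fall, and up to a 1.08-fold rise for Ddx58 and a 1.07-fold rise for Ifi203. The other helicases of the family were Ifih1 (MDA5) at 0.14 ± 0.37 and Dhx58 (LGP2) at 0.37 ± 0.54 per the authors' deposited table. Zbp1, a sensor of Z-form nucleic acid that can trigger necroptosis, was at -0.40 ± 0.30, Trim25, a ubiquitin ligase that acts on RIG-I, at -0.11 ± 0.25 and Ifi204 at 0.20 ± 1.12 per the authors' deposited table.

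ISG15 is a ubiquitin-like protein that is conjugated to other proteins during the interferon response. The modifier Isg15 itself was at -0.04 ± 0.41, its mouse ligase Herc6 at -0.11 ± 0.37 and its protease Usp18, which also damps the type I receptor, at 0.30 ± 0.46 per the authors' deposited table. The 3 intervals ran from -0.86 to 1.21 in all.

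The remaining antiviral genes included the largest negative value of the 40. Bst2, the tetherin that holds budding virus at the cell surface, stood at -0.52 ± 0.28 (unadjusted p = 0.0684, adjusted p = 0.416) with a baseMean of 527 per the authors' deposited table. This implies a mean of 434 in KO against 621 in WT, with an interval from a 2.10-fold fall to a 1.03-fold rise. Cmpk2 and Rsad2 lie 12751 bp apart on chromosome 12 and act in 1 pathway, in which the kinase Cmpk2 supplies the nucleotide that Rsad2 (viperin) turns into a chain terminator. Cmpk2 was at -0.51 ± 0.40 and Rsad2 at 0.54 ± 0.51 per the authors' deposited table, on opposite sides of 0 with overlapping intervals. The ADP-ribosyltransferase genes Parp9 and Parp14 were at -0.32 ± 0.31 and 0.08 ± 0.31 per the authors' deposited table. Parp9 shares 458 bp of exon with Dtx3l on the opposite strand, and without strand information their reads cannot be told apart there. Ifi35 was at -0.21 ± 0.34, Xaf1, a pro-apoptotic factor, at -0.34 ± 0.39, Rtp4 at -0.01 ± 0.46 and Ifi44 at 0.08 ± 0.79 per the authors' deposited table.

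The GBPs had the highest median level of the role groups, 196 normalized counts per kb of exon. All 5 had a negative KO over WT value, between -0.34 and -0.09, none passed, and Gbp3 and Gbp7 turned positive when values were centred on abundant genes. Gbp4 stood at -0.30 ± 0.18 (adjusted p = 0.478) at a baseMean of 2095 and Gbp7 at -0.15 ± 0.20 (adjusted p = 0.782) at a baseMean of 1585 per the authors' deposited table. The interval of Gbp4 reached from a 1.58-fold fall to a 1.04-fold rise, that of Gbp7 from a 1.45-fold fall to a 1.17-fold rise. Gbp2 was at -0.34 ± 0.28, Gbp3 at -0.09 ± 0.35 and Gbp5, which promotes inflammasome assembly, at -0.28 ± 0.55 per the authors' deposited table. Gbp5, Gbp7, Gbp3 and Gbp2 form 1 cluster on chromosome 3 (142493978 to 142638008, mm10), while Gbp4 lies on chromosome 5 and shares 61 bp of exon with Gbp8 and 60 bp with Gbp9 on its own strand. Among tested genes, 92.9% were below 0 at a baseMean of at least 1000, where Gbp4 and Gbp7 lie, and 69.8% at 100 to 1000, where Gbp2 and Gbp3 lie. Gbp5 lies under 100, where 18.2% were below 0.

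The IRGs lay on both sides of 0. Irgm1, a regulator that keeps the effector GTPases off host membranes, was at 0.19 ± 0.23 (adjusted p = 0.764) at a baseMean of 685 per the authors' deposited table, with an interval from a 1.20-fold fall to a 1.56-fold rise. Igtp, a regulator of the same kind, was at -0.07 ± 0.32 and Ifi47 at -0.36 ± 0.35 per the authors' deposited table. Igtp shares 162 bp of exon with Irgm2 on the same strand. Iigp1, an effector that loads onto parasite vacuoles, was at 0.60 ± 1.12 (adjusted p = 0.863) at a baseMean of 261 per the authors' deposited table. Its interval ran from a 3.02-fold fall to a 6.89-fold rise, the widest of the 29 members with a baseMean of at least 100.

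The error of Iigp1 stood apart. It was 3.17 times the running median SE of genes of like baseMean, while the median of this ratio over the 40 members was 1.01 and no other member exceeded 1.5. Of 9225 tested genes with a baseMean of at least 100, 129 (1.4%) exceeded that ratio. The ratio was exceeded by 3 of 6 epithelial markers, with 8.76 for the surfactant gene Sftpc, 5.10 for Scgb1a1 and 4.03 for Sftpb. It was also exceeded by 1 of 13 macrophage markers, Chil3 at 4.05, and 1 of 6 endothelial markers, Kdr at 2.99, and by 0 of the tested T, B, NK and plasmacytoid dendritic cell markers. Of the 35 other interferon-stimulated genes tested 1 exceeded it, Ifitm3 at 3.40. These genes were picked out after their values were seen. Whether RNA of other cells has a part in the error of Iigp1 was not tested.

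**Figure D2:**
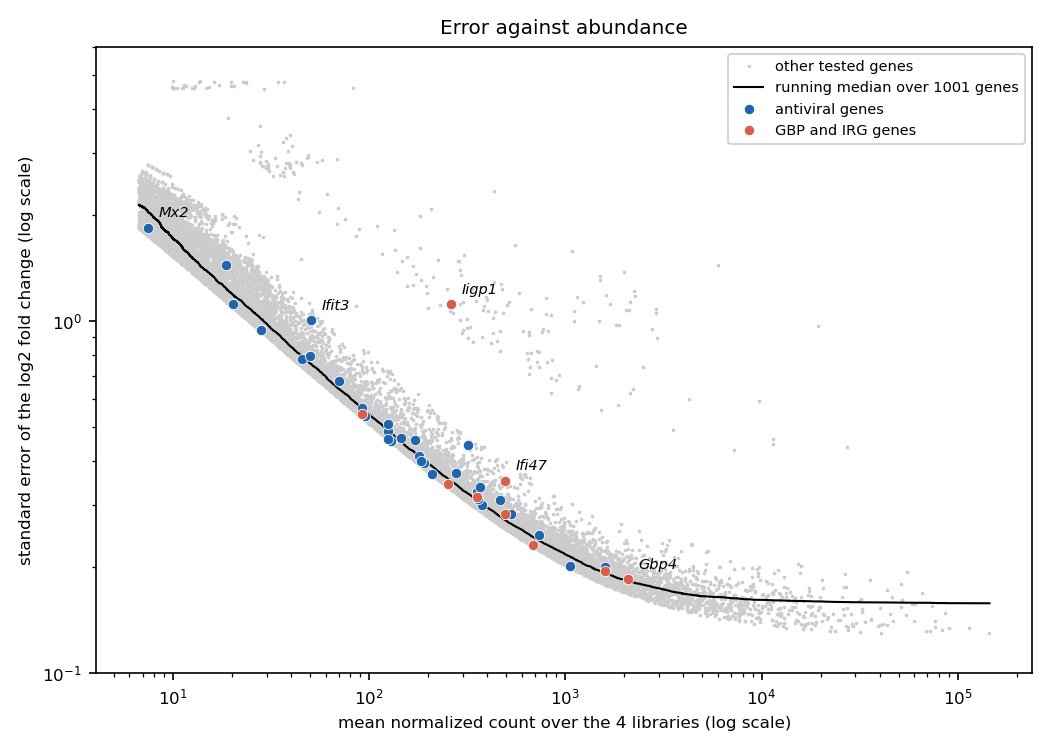
Standard error of the log2 fold change (y axis, log scale) against the mean normalized count over the libraries (x axis, log scale) for the 19193 tested genes (grey), their running median (line), the antiviral genes (blue) and the GBP and IRG genes (red). Iigp1 lies at 3.17 times the line, and the other 39 members lie within 1.5 times of it.

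Set side by side, the classes had medians of -0.15 for the 9 GBP and IRG genes and 0.01 for the 31 antiviral genes on the log2 scale, KO over WT. Values below 0 were found in 7 of 9 and in 15 of 31. The classes also differed in abundance, with a median baseMean of 492 for GBP and IRG genes and 171.3 for antiviral genes. In these data the KO over WT log2 fold change was lower at higher abundance. The median over tested genes with a baseMean under 100 was 1.10 and over those with at least 1000 it was -0.25. Relative to the running median of genes of like baseMean, GBP and IRG genes had a median of 0.03, with 5 of 9 above it, and antiviral genes a median of -0.01, with 14 of 31 above it. Among members with a baseMean of at least 100, the class medians were -0.12 for 8 GBP and IRG genes and -0.11 for 21 antiviral genes. The difference between the classes was not tested, since members of a class are not replicates.

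**Figure D3:**
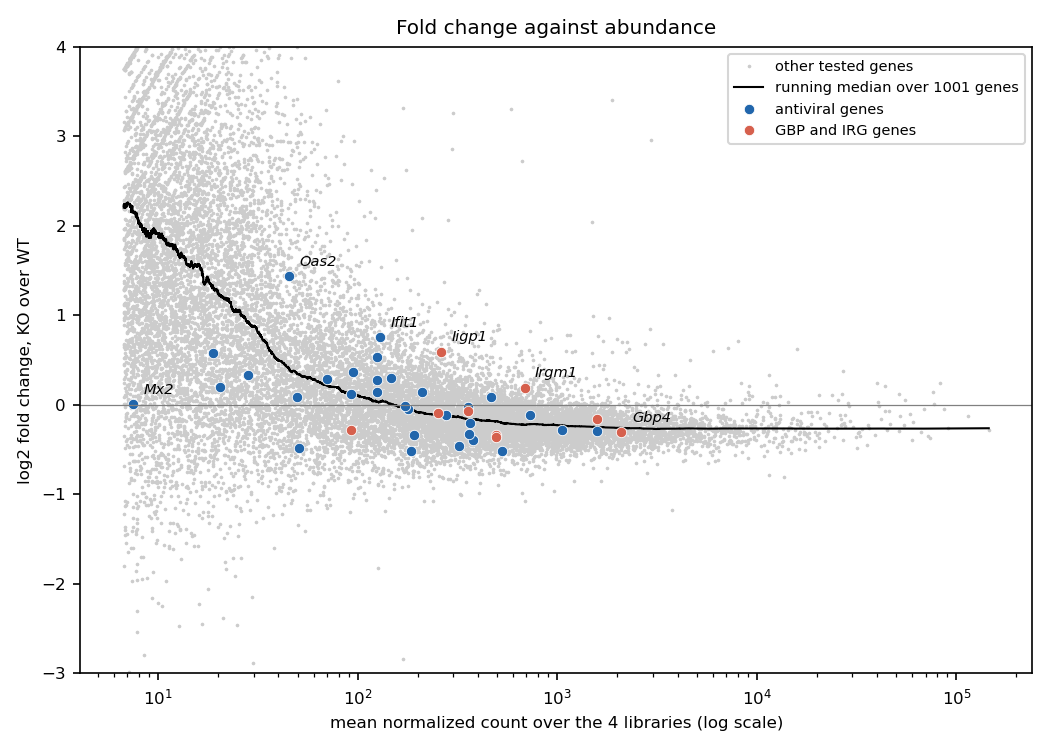
Log2 fold change, KO over WT (y axis, cut at -3 and 4, so some low genes are not drawn), against the mean normalized count over the libraries (x axis, log scale) for tested genes (grey), their running median (line), antiviral genes (blue) and GBP and IRG genes (red). The line is lower at higher abundance, and 19 of the 40 members lie above it.

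The signs of the members were read against this trend by abundance. Of 11 members with a baseMean under 100, 9 had positive values (81.8%), as did 81.8% of tested genes in that range. Their median was 0.20, against 1.10 for those genes, but the sets differ in abundance, with a median baseMean of 49.8 against 17.0. Relative to the running median, 8 of the 11 lay below it, with a median of -0.40. Of 29 members with a baseMean of at least 100, 20 had negative values (69.0%), against 76.0% of tested genes in that range. The 4 members with at least 1000, namely Gbp4, Ifi203, Gbp7 and Ddx58, had a median of -0.29, beside -0.25 for tested genes of that range. Relative to the running median, Mx2 was at -2.14, Ifi204 at -1.03 and Ifit3 at -0.82 on the log2 scale. Oas2, at 1.04, Ifit1, at 0.72, and Iigp1, at 0.72, lay above it.

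Per kb of exon, the most abundant member was Bst2, at 584 normalized counts per kb, followed by Gbp7 at 282 and Gbp4 at 279.6. Isg15 (237), Ifi203 (236), Ifi35 (212), Ifi47 (199), Gbp2 (196), Isg20 (191) and Igtp (176) completed the first 10. GBP and IRG genes had a median level of 176 per kb and antiviral genes of 44.4, while the median over all tested genes was 25.7. Levels under 10 per kb were those of Ifi44 (8.13), Ifi204 (5.71), Mx1 (4.95) and Mx2 (2.07). As no spread over pools is given for baseMean, neighbours in this order are not separated by a test. In bulk RNA, a level over pooled cells cannot tell more expressing cells from more RNA per cell.

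**Figure D4:**
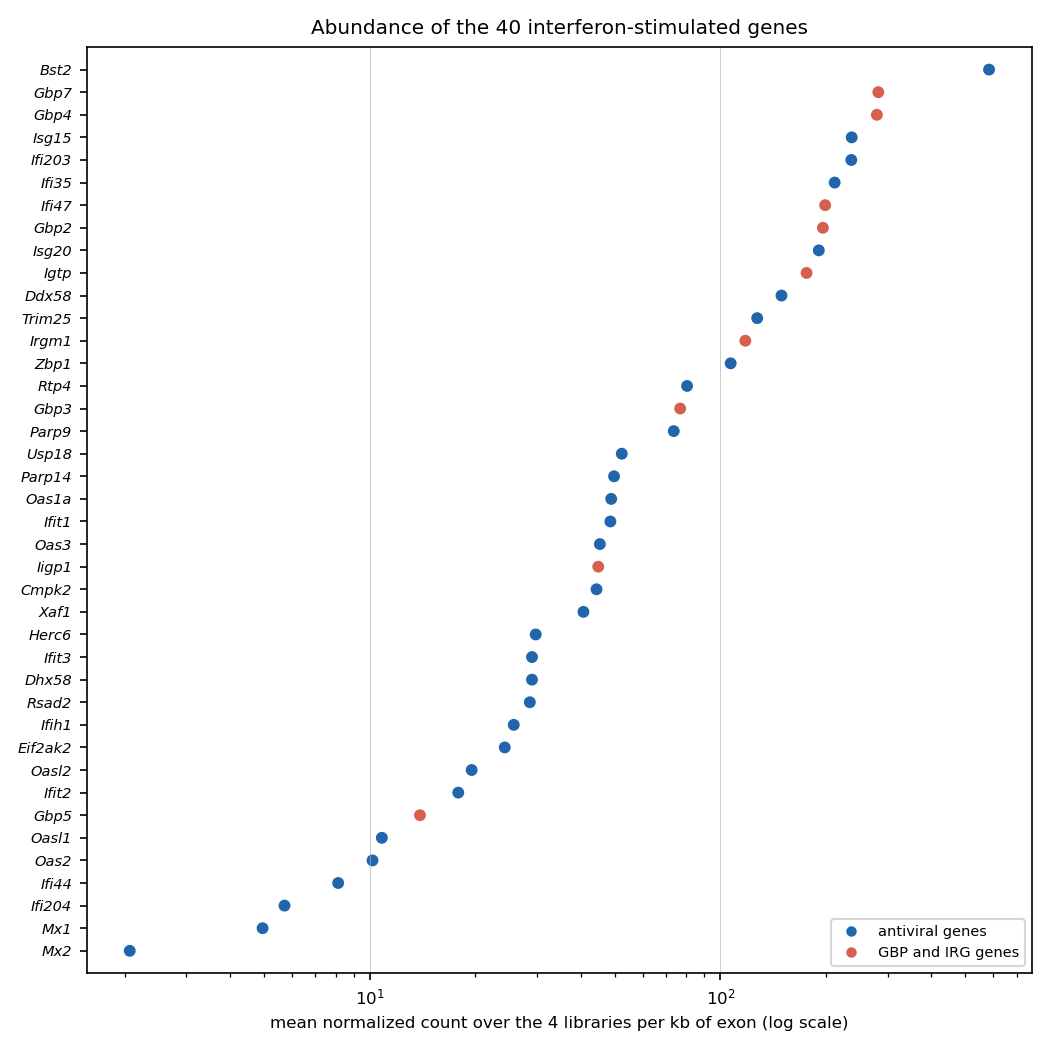
Mean normalized count over the libraries per kb of exon (x axis, log scale) of each of the 40 members (y axis, ordered by level), antiviral genes in blue and GBP and IRG genes in red. Levels run from 2.07 for Mx2 to 584 for Bst2, and 4 of the 8 most abundant are GBP or IRG genes.

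The pathway above these genes was transcribed at its receiving end, and none of its tested genes passed. Ifngr1, the ligand-binding chain for interferon-gamma, had a baseMean of 15355 and a value of -0.37 ± 0.20 (adjusted p = 0.416) per the authors' deposited table. Ifngr2 was at -0.39 ± 0.21, Ifnar1 at -0.24 ± 0.20 and Ifnar2 at -0.22 ± 0.24 per the authors' deposited table. Relative to the running median of genes of like baseMean, the 6 listed receptor genes had a median of -0.05, with 3 above it and 3 below. Of 10 interferon ligand genes only Ifng had an adjusted p, at 0.44 ± 1.16 and a baseMean of 19.5 per the authors' deposited table. The other 9 had baseMean values under 6.71, below which no gene has an adjusted p, with Ifnb1 at 4.54, Ifne at 2.50, Ifna4 at 1.73 and Ifna5 at 0.742.

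Of 11 kinase, Stat2, IRF and SOCS genes, 0 passed, against 0.552% of tested genes. At an unadjusted p under 0.05, 1 was higher and 2 were lower, against 9.62% and 3.95% of tested genes. Relative to the running median of genes of like baseMean, the 11 had a median of 0.17, with 8 above it. Jak1 was at -0.41 ± 0.15 (unadjusted p = 0.00830, adjusted p = 0.175) and Stat2 at -0.55 ± 0.25 (unadjusted p = 0.0279, adjusted p = 0.286) per the authors' deposited table. Socs3, a feedback inhibitor of cytokine receptors, was at 0.43 ± 0.19 (unadjusted p = 0.0252, adjusted p = 0.275) and Irf1, which acts on GBP promoters, at 0.34 ± 0.18 (adjusted p = 0.401) per the authors' deposited table. Among 7 tested genes of nucleic acid sensing pathways 0 passed and 1, the adaptor Mavs, was lower at an unadjusted p under 0.05. Mavs stood at -0.65 ± 0.29 (adjusted p = 0.272) per the authors' deposited table. Relative to the running median, these 7 genes had a median of -0.48, with 5 below it. Mb21d1, which encodes cGAS, was at -0.67 ± 0.37, Irf3 at -0.28 ± 0.24 and Tmem173, which encodes STING, at -0.17 ± 0.23 per the authors' deposited table.

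**Figure D5:**
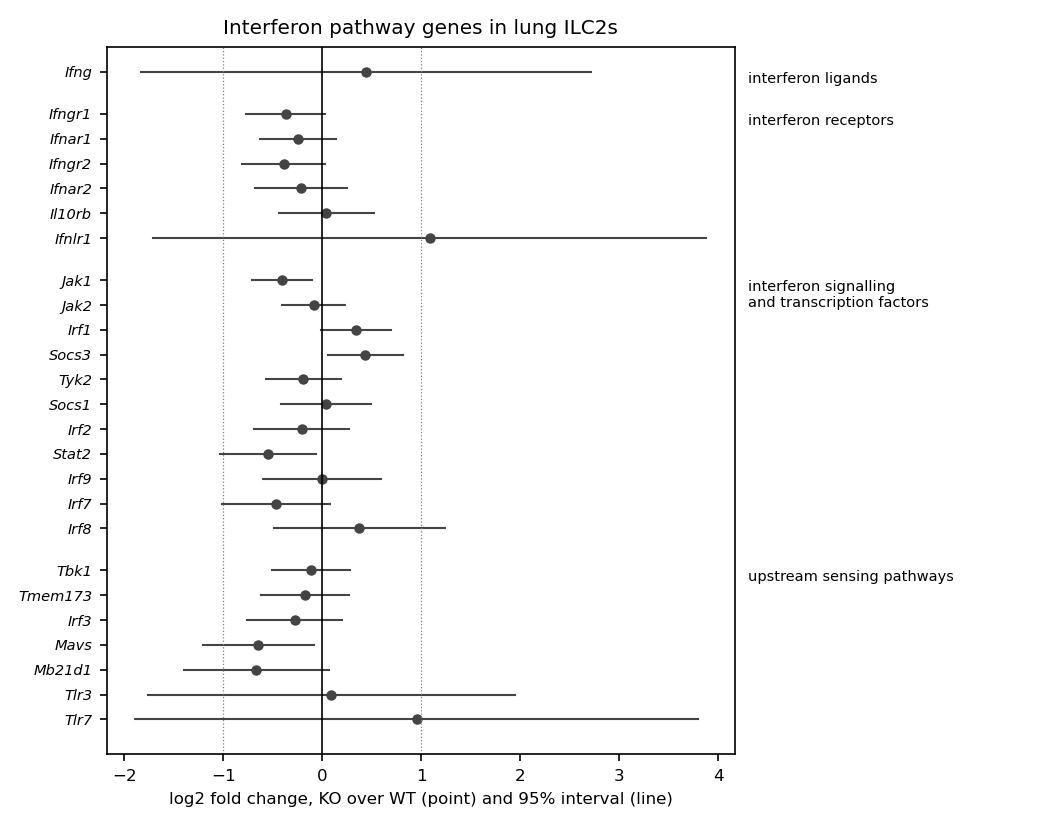
Log2 fold change, KO over WT (x axis; points), with 95% intervals from the authors' standard errors (lines) for the listed interferon ligand, receptor, signalling and sensing genes that were tested (y axis, most abundant of a group on top). Dotted lines mark 2-fold changes; intervals of Jak1, Stat2, Socs3 and Mavs lie off 0, and none of these 4 passed after adjustment.

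Of 35 tested interferon-stimulated genes outside the 40, 0 passed and 0 had an unadjusted p under 0.05, against 0.552% and 13.6% of tested genes. Their median was -0.18. Relative to the running median of genes of like baseMean it was -0.003, with 17 above the running median and 18 below. Ly6e, the most abundant at a baseMean of 33518, was at -0.27 ± 0.14, Samhd1, a dNTP hydrolase, at -0.32 ± 0.18 and Phf11b at 0.71 ± 0.41 per the authors' deposited table. Of 12 further GBP and IRG genes 0 passed and 8 had positive values, against 54.0% of tested genes. Relative to the running median, 6 lay above it and 6 below. Only 1 had an unadjusted p under 0.05, against 13.6% of tested genes. That gene was Gbp2b, at 4.45 ± 1.54 (adjusted p = 0.138) and a baseMean of 14.4 per the authors' deposited table. Tgtp2, an IRG with the near-identical copy Tgtp1, was at -0.56 ± 0.33 and Gbp11 at 3.69 ± 1.94 per the authors' deposited table.

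Other cell types can contribute interferon-stimulated transcripts, and their markers were read beside the members. The 6 epithelial and 6 endothelial markers all had positive values, with medians of 1.07 and 0.42. Among all tested genes 54.0% were positive, and 24.0% of those with a baseMean of at least 100. All of these markers lay above the running median of genes of like baseMean, with medians of 1.15 and 0.60 relative to it. At an unadjusted p under 0.05, 3 epithelial markers and 1 endothelial marker were higher, against 9.62% of tested genes. The implied sums were 10670 in KO against 5963 in WT for the epithelial list and 2945 against 2276 for the endothelial list. The epithelial sums rest mainly on Sftpc (baseMean 6032, 0.60 ± 1.44) and Scgb1a1 (1486, 2.04 ± 1.00) per the authors' deposited table. Both are among the markers of wide error named above, so these sums are uncertain. None of the epithelial and endothelial markers passed, while Krt18 at 2.00 ± 0.71 (adjusted p = 0.153) and Emcn at 1.15 ± 0.49 (adjusted p = 0.240) had the smallest p of each list per the authors' deposited table. Of 13 tested macrophage and monocyte markers 12 were positive, against 54.0% of all tested genes. Csf1r was at 1.12 ± 0.55 (adjusted p = 0.341) per the authors' deposited table. Relative to the running median of genes of like baseMean, 9 of the 13 lay above it. The implied sums of this list, 22208 in KO against 24839 in WT, rest mainly on Ccr2 (baseMean 12973), which ILC2s also express, and Lyz2 (8981). Plasmacytoid dendritic cells, which are strong makers of type I interferon, had their marker Siglech at a baseMean of 8.57, and 2 of their 8 markers had no adjusted p. The 6 tested summed to an implied 1099 in KO against 1030 in WT. These sums rest mainly on Tcf4 (baseMean 476), Ccr9 (404) and Pacsin1 (155), while Ly6d (13.8) and Spib (6.91) were low. Of 9 tested T cell markers 1, Cd3g, passed as lower, at -0.96 ± 0.24 (adjusted p = 0.0292) per the authors' deposited table. Of all tested genes 0.099% passed as lower. At an unadjusted p under 0.05, 3 of the 9 were lower, against 3.95% of tested genes. The implied sums of the T cell list were 7150 in KO against 9807 in WT. They rest mainly on Trbc1 (baseMean 2938), Trbc2 (2525) and Lat (1837), while Cd3e (51.8) and Cd4 (13.8) were low. At a baseMean of at least 1000, 92.9% of tested genes were below 0. Relative to the running median of genes of like baseMean, however, 8 of the 9 T cell markers lay below it, with a median of -0.33. The implied sums of the B cell list were 212.3 in KO against 108.7 in WT. Of 5 B cell markers 4 were positive, with Ms4a1 at 2.66 ± 1.20 per the authors' deposited table. Their baseMean values were at most 67.3, and under 100, 81.8% of tested genes were positive, with a median of 1.10. Relative to the running median of genes of like baseMean, 4 of these 5 markers lay above it. Of 7 NK cell and ILC1 markers 3 were tested, with Gzma at 0.40 ± 1.34 per the authors' deposited table. Of the 15 ILC2 identity genes 14 had negative values (93.3%) and 0 passed, with a median of -0.33. Over tested genes with a baseMean of at least 1000, 92.9% were negative, with a median of -0.25. Relative to the running median of genes of like baseMean, 9 of the 15 lay below it, with a median of -0.08. At an unadjusted p under 0.05, 6 of the 15 were lower, against 3.95% of all tested genes. The median SE of the 15 was 0.17, against 0.61 over all tested genes. The part of any of these cells in the values of the 40 genes was not tested.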

How the data were processed

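RNA from sorted lung ILC2s was profiled in 2 KO and 2 WT pools, using the SMART-Seq HT and TruePrep kits, per the labels' protocols. The submitters' processing notes list HISAT2, Cufflinks and mm10 and state no role. The sources used here give no counter, annotation or strand setting.

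Per the file headers, the table that the authors deposited has the headings of a DESeq2 results table. Per gene, the authors deposited in it a normalized count averaged across libraries (a signal), log2 fold changes and their standard errors, the statistic (a score), its p-value and the same after adjustment. The 8 columns of values per library were not used, since their codes fit no label, so the planned edgeR test could not be run and the authors' test stands in.

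The deposited sign was turned so that positive means higher in KO. Adjusted p-values exist for 19193 genes with a baseMean of at least 6.71. Intervals are the log2 fold change ± 1.96 SE. Implied genotype means assume equal weight of the genotypes. Positions and exon lengths come from GENCODE M21 (mm10), which had a record for 38388 of 38697 identifiers, and promoters from RefSeq (GRCm38.p6), where 28 of 40 symbols matched. Python 3.11.15 with pandas 2.3.3 and scipy 1.17.1 was used, and adjustment and running medians were tested on simulated data.

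The 40 members and the other lists were chosen with earlier results of these data known. A gene of the signalling list is not reported here. Named genes are the 40 members, in each other list up to 4 genes of smallest p, and for other cell types the marker of highest baseMean; promoters are those of the 2 members of highest baseMean per class that have one; others named were chosen after their values were seen. Alternatives changed the filter, the genes adjusted for, the threshold and the scaling.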

Additional observations from a re-analysis of the deposited data

How the results depend on the processing

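No member was called in any setting: 0 of 40 as deposited, without a filter, at an adjusted p under 0.1 and when centred on abundant genes, 0 of 34 with a baseMean of at least 50, 0 of 39 among protein-coding genes, and 0 of 40 at an unadjusted p under 0.05, a setting chosen after seeing the data. The smallest adjusted p ranged from 0.281 (Ifit1, centred) to 0.637 (Oas2, no filter). Over all genes, 87 were higher and 19 lower in KO as deposited, 39 and 17 among protein-coding genes, 22 and 13 among those of baseMean 50 or more, 21 and 2 with no filter, 266 and 40 at an adjusted p under 0.1 and 225 and 2 when centred. Nrp1 kept its direction and call in all of them. Centring adds 0.25 to each log2 value and turned 9 of 40 members, all uncalled, to above 0: Isg20 (0.23), Trim25 (0.14), Isg15 (0.21), Herc6 (0.14), Rtp4 (0.24), Ifi35 (0.0463), Gbp3 (0.16), Gbp7 (0.10) and Igtp (0.19). The members' median (KO over WT) was -0.03 with no change, -0.10 with a baseMean of at least 50, 0.22 centred, -0.01 relative to genes of like abundance and -0.13 as a weighted mean. The median of antiviral genes minus that of GBP and IRG genes was 0.16 with no change, 0.11 with a baseMean of at least 50, 0.04 with weighted means and -0.04 relative to genes of like abundance. The sign of the members' median thus turned with centring, and that of the class difference relative to genes of like abundance. No paired analysis was possible because no column of values per library matches a sample label; for the same reason fits without single replicates, with another tool or with a replicate block were not run. Precision is set by 2 pools per genotype and, for genes with a baseMean under 100, by few reads.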

Other observations

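Among low-count relatives of the members, values differed widely. Gbp2b (4.45 ± 1.54), Ifit1bl1 (3.72 ± 1.90) and Gbp11 (3.69 ± 1.94), picked out for their size, had baseMean values of 14.4, 9.93 and 9.80 per the authors' deposited table. None passed (adjusted p of 0.138, 0.371 and 0.388). Other low relatives had smaller values, with Ifit1bl2 at 0.20 ± 1.83, Ifi205 at 0.62 ± 1.68 and Gm4841 at 0.88 ± 1.43 per the authors' deposited table. Oas1b, at -1.12 ± 0.70, and Oas1c, at -0.90 ± 0.62, lay on the other side of 0 per the authors' deposited table. For tested genes with a baseMean under 100, 81.8% of values were positive.

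Members with an ISRE match in a promoter window had a median log2 fold change of -0.09 (17 genes) and members without one of -0.11 (11 genes). For the GAS letters the medians were -0.07 (9 genes) with a match and -0.11 (19 genes) without. These are descriptions, with no test.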
